A study of Homo sapiens with 4 samples.

Results

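Amino acid transporters of the plasma membrane were followed as a set of 10 genes, SLC7A5, SLC3A2, SLC7A1, SLC7A3, SLC7A11, SLC38A1, SLC38A2, SLC1A4, SLC1A5 and SLC43A1. They were taken by gene symbol, and all 10 stood once among the 25122 genes of the deposited table. The cells were Jurkat, an established human T-cell acute lymphoblastic leukaemia line labelled with a WT genotype, and mRNA was sequenced from 2 libraries labelled shBDH1, for a short hairpin RNA directed at BDH1, and 2 labelled shcontrol, for a control hairpin. BDH1 is the mitochondrial dehydrogenase that interconverts the ketone bodies acetoacetate and 3-hydroxybutyrate, and the design text places MYC downstream of it. Cells with restored MYC, of which that text also speaks, were not analysed here. The labels give neither the hairpin sequence nor the time after its delivery, and nothing in them ties the libraries of a group to separate cultures. P-values therefore cover only library-to-library spread, which may be technical.

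Amino acids cross the plasma membrane through several solute carrier families that differ in cargo and in what drives them. SLC7A5 and SLC7A11 are light chains that reach the surface only when bound to the heavy chain SLC3A2, and they work as exchangers, so they need other carriers to load the cell with the amino acids they export. Sodium-coupled carriers of the SLC38 family provide much of that loading. In T cells several of these genes are known to be raised on activation, with MYC and the amino acid stress factor ATF4 among their known regulators.

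Every transporter that could be tested was lower in the shBDH1 libraries. The 10 genes, and the lists set beside them below, were chosen with earlier results of these data known. Their counts beside those of all genes therefore describe picked sets and are no test of them. Of the 10 genes, 9 reached the minimum mean of 10 normalized read counts (reads divided by the authors' size factor for each library), and 9 of these 9 fell (limma on log2(value + 1), Benjamini-Hochberg adjusted p under 0.05). Among all 19301 genes tested, 20.8% were called lower and 20.3% higher. With 1 variance prior for all genes, 7 of the 9 passed the same threshold, SLC1A4 and SLC38A2 being lost, and 1246 genes were called lower and 1598 higher. The limma adjusted p of these 7 then ran from 0.029 (SLC7A5, SLC3A2 and SLC43A1) to 0.05 after rounding (SLC38A1). The far smaller limma values given for them below thus depend on how the variance prior is set. All 9 transporters averaged over 1000 normalized counts, and 34.7% of the 7227 genes at that level were called lower. The median log2 fold change was -0.62 over the 9 transporters, against -0.01 over all genes tested and -0.04 over genes at 1000 or more. The shBDH1 values lay below the shcontrol values without overlap for 9 of 9, a pattern seen in 34.9% of all genes tested. Values are relative to each library, and a lower level in every cell and a smaller share of expressing cells cannot be told apart in such bulk RNA.

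**Figure D1:**
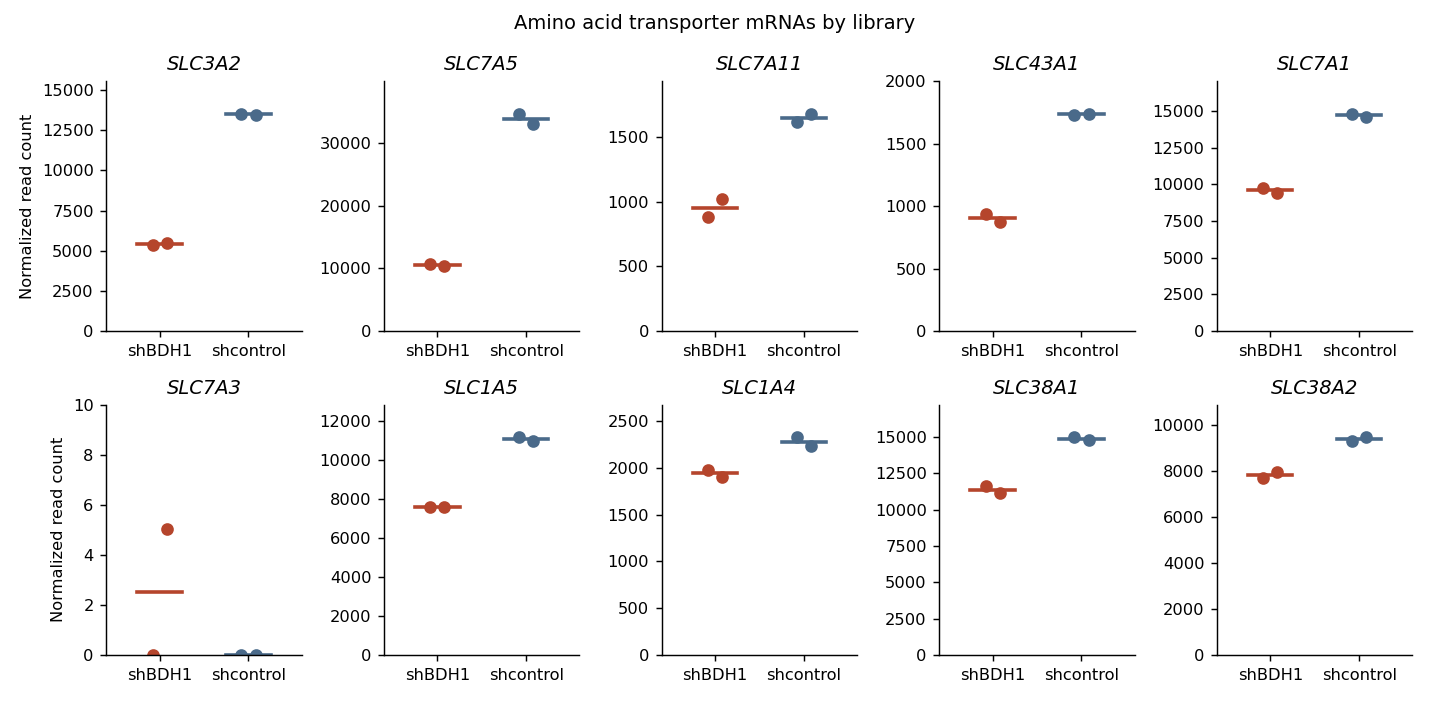
Normalized read count (y axis, linear, from 0) of each of the 10 transporter genes in the shBDH1 libraries (red) and the shcontrol libraries (blue); points are libraries and bars are group means. In 9 panels both red points lie below both blue points, and SLC7A3 had 0 in all libraries but 1.

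The heavy chain and its most abundant light chain had the largest falls of the set. SLC3A2, the CD98 heavy chain that carries its light chains to the cell surface, had 5355 and 5467 normalized counts in shBDH1 and 13521 and 13426 in shcontrol. The libraries of a group lay close together and far from the other group. Its mean fell to 5411 ± 79.1 in shBDH1, against 13474 ± 66.7 in shcontrol (SD, n = 2 each), with a log2 fold change of -1.32 (SE 0.040, 95% interval -1.40 to -1.23, limma adjusted p = 1.5e-20). The gene (ENSG00000168003) lies on chromosome 11 from 62856102 to 62888875 (hg38, plus strand). Of the 7227 genes with a mean of 1000 or more, 29 had a lower log2 fold change.

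SLC7A5, or LAT1, exchanges large neutral amino acids such as leucine, phenylalanine and tryptophan, often against glutamine. It had 10762 and 10413 normalized counts in shBDH1 and 34665 and 33070 in shcontrol, so both shBDH1 libraries held less than any shcontrol library by a wide margin. The mean fell by 68.7% relative to shcontrol, a change of -1.68 on the log2 scale (SE 0.034, 95% interval -1.75 to -1.61, limma adjusted p = 2.9e-24). The log2 fold change ranked 8 from the bottom among the 7227 genes at 1000 or more. SLC7A5 (ENSG00000103257) lies on chromosome 16 from 87830023 to 87869488 (minus strand).

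Because SLC7A5 showed the largest fall of the 9, the 250 bases before its RefSeq start are shown, on the strand of the gene (GRCh38.p14, chr16:87869508-87869757, minus strand); capitals mark CACGTG, the E-box letters that MYC with its partner MAX is known to bind.
SLC7A5: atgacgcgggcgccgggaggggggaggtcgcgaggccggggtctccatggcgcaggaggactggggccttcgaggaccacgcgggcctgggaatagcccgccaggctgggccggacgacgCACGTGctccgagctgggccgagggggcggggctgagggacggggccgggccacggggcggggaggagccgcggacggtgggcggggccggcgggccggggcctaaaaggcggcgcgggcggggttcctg
The stretch is 79.6% G and C, and the E-box begins 130 bases before the start.

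SLC7A11, or xCT, imports cystine in exchange for glutamate and so feeds glutathione synthesis. Its normalized counts were 885 and 1022 in shBDH1 and 1612 and 1678 in shcontrol. The shBDH1 libraries differed from each other more than the shcontrol libraries did, yet both stayed below them. SLC7A11 mRNA fell by 0.79 on the log2 scale (SE 0.081, 95% interval -0.96 to -0.62, limma adjusted p = 4.9e-09). SLC7A11 (ENSG00000151012) lies on chromosome 4 from 138164097 to 138242349 (minus strand).

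SLC43A1, or LAT3, carries large neutral amino acids like SLC7A5 but by facilitated diffusion and with no heavy chain. It had 935 and 870 normalized counts in shBDH1 and 1728 and 1741 in shcontrol. Its fall was the third in size among the 9, with a log2 fold change of -0.94 (SE 0.077, 95% interval -1.10 to -0.78, limma adjusted p = 5.3e-11). SLC43A1 (ENSG00000149150) lies on chromosome 11 from 57484534 to 57515786 (minus strand). The SE of SLC43A1 and SLC7A11 was larger than the 0.034 and 0.040 of SLC7A5 and SLC3A2, which had higher counts.

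**Figure D2:**
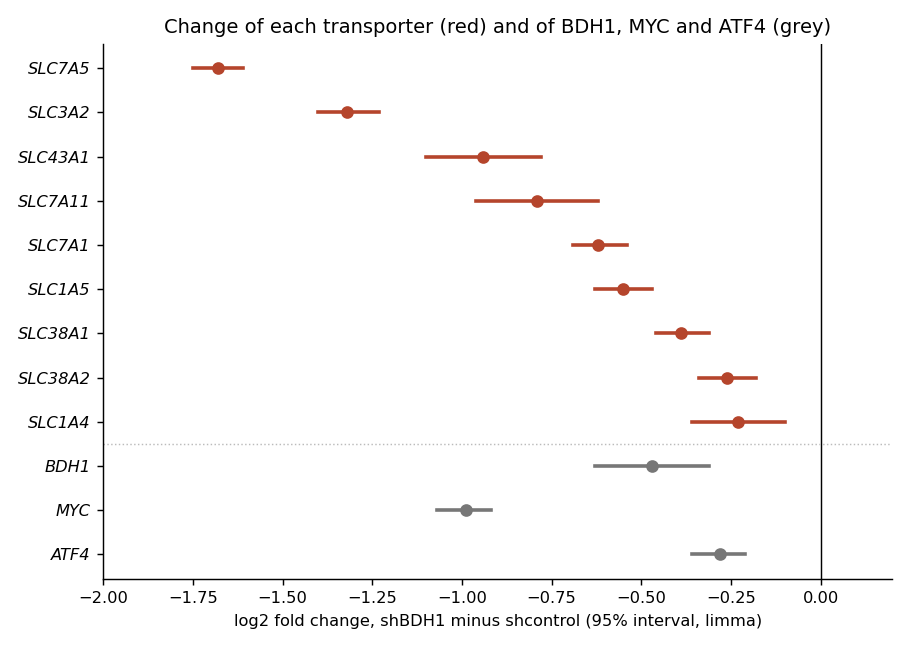
Log2 fold change of shBDH1 minus shcontrol (x axis; points) with its 95% interval from limma (lines) for the 9 transporters tested, in order of size (red), and for BDH1, MYC and ATF4 (grey). The intervals of SLC7A5 and SLC3A2 lie apart from each other and from those of the other transporters, while SLC38A2 at -0.26 and SLC1A4 at -0.23 share most of their range.

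The cationic amino acid carriers were represented by 1 expressed gene. SLC7A1, or CAT1, takes up arginine and lysine, and had 9780 and 9393 normalized counts in shBDH1 and 14813 and 14569 in shcontrol. Both shBDH1 libraries were lower, and the mean fell by 34.8% relative to shcontrol (log2 fold change -0.62, SE 0.037, 95% interval -0.69 to -0.54, limma adjusted p = 7.5e-14). SLC7A1 (ENSG00000139514) lies on chromosome 13 from 29509410 to 29595688 (minus strand). SLC7A3, or CAT3, a related carrier of arginine and lysine on chromosome X (ENSG00000165349, 70925582 to 70931125, minus strand), had 0 and 5 reads in shBDH1 and 0 and 0 in shcontrol. With 3 of 4 libraries at 0 it did not enter the test, and no fold is given.

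Of the 2 sodium-dependent SLC1 carriers in the set, SLC1A5 had the larger log2 fold change. SLC1A5, or ASCT2, exchanges glutamine and other small neutral amino acids; its normalized counts were 7591 and 7576 in shBDH1 and 11161 and 10972 in shcontrol. Its groups lay far apart for their spread, with a log2 fold change of -0.55 (SE 0.039, 95% interval -0.63 to -0.47, limma adjusted p = 3.0e-12). SLC1A4, or ASCT1, which favours alanine, serine and cysteine, had 1979 and 1908 normalized counts in shBDH1 and 2327 and 2230 in shcontrol. This was the smallest fall of the 9, at -0.23 (SE 0.063, 95% interval -0.36 to -0.10, limma adjusted p = 0.0041), and it no longer passed without shcontrol replicate 1 (-0.20, limma adjusted p = 0.061) or with 1 variance prior for all genes (limma adjusted p = 0.11). Over the alternatives run, its adjusted p ranged from 0.0014 to 0.11. The genes lie on chromosome 19 from 46774883 to 46788594 (SLC1A5, ENSG00000105281, minus strand) and on chromosome 2 from 64988477 to 65023865 (SLC1A4, ENSG00000115902, plus strand).

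The SLC38 carriers, sodium-coupled importers of glutamine, alanine and other small neutral amino acids, had small log2 fold changes. SLC38A1, or SNAT1, had 11652 and 11123 normalized counts in shBDH1 and 14987 and 14792 in shcontrol, a log2 fold change of -0.39 (SE 0.037, 95% interval -0.46 to -0.31, limma adjusted p = 9.1e-10). With 1 variance prior for all genes SLC38A1 passed only narrowly (limma adjusted p = 0.05 after rounding). SLC38A2, or SNAT2, known to be induced when amino acids run short, had 7695 and 7977 in shBDH1 and 9300 and 9464 in shcontrol. It fell by 0.26 on the log2 scale (SE 0.040, 95% interval -0.34 to -0.18, limma adjusted p = 5.4e-06); with 1 variance prior for all genes it no longer passed the test (limma adjusted p = 0.080; the alternatives ranged from 1.8e-10 to 0.080). For both genes the groups did not overlap. They are neighbours on chromosome 12, from 46183063 to 46270017 (SLC38A1, ENSG00000111371) and from 46358189 to 46372867 (SLC38A2, ENSG00000134294), each on the minus strand.

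Summed over the 10 genes, the transporters had 56632 and 55753 normalized counts in shBDH1 and 104114 and 101942 in shcontrol; the mean fell by 45.5% in shBDH1. They took 0.196% and 0.193% of all reads in shBDH1, against 0.354% and 0.346% in shcontrol. Without SLC7A5, the sum of the other 9 genes fell by 34.1% in shBDH1.

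The levels of the 10 genes were set in order per kilobase of exon, with the merged exons of the basic GENCODE 29 transcripts. In shBDH1 the order on this scale began with SLC7A5 at 2308 ± 53.8 normalized counts per kilobase, SLC1A5 at 2276 ± 3.04 and SLC3A2 at 2039 ± 29.8 (SD, n = 2 each), where the libraries of SLC7A5 and SLC1A5 overlapped. SLC38A2 at 1565, SLC7A1 at 1305, SLC38A1 at 1221, SLC1A4 at 414, SLC43A1 at 334 and SLC7A11 at 98.8 followed. In shcontrol SLC7A5 stood well apart at 7383 ± 246, ahead of SLC3A2 at 5077 ± 25.1 and SLC1A5 at 3321 ± 40.1. There SLC7A1 at 2000, SLC38A2 at 1874, SLC38A1 at 1596, SLC43A1 at 642, SLC1A4 at 486 and SLC7A11 at 171 followed. SLC43A1 thus stood below SLC1A4 in shBDH1 and above it in shcontrol. Several places depended on the gene model. With the exons of all GENCODE 29 transcripts, a choice made after seeing the data, SLC3A2 had 1045 per kilobase in shBDH1 and 2602 in shcontrol, the sixth and the third place. In shBDH1 SLC1A5 at 2276 then came before SLC7A5 at 2231, and SLC7A1 at 1246 took the third place. In shcontrol SLC7A5 still led at 7138, SLC1A5 at 3321 took the second place, and SLC38A1 at 1487 stood above SLC38A2 at 1421.

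SLC3A2 serves several light chains, so its level was set against theirs. Besides SLC7A5 and SLC7A11, the light chains SLC7A6, SLC7A7 and SLC7A8 were in the table, and they are named here for this pairing. SLC7A6 fell slightly (log2 fold change -0.20, limma adjusted p = 0.0031), SLC7A8 rose (0.47, limma adjusted p = 0.017), and SLC7A7 did not pass the test (0.16, limma adjusted p = 0.70). Summed per kilobase, the 5 light chains came to 3138 and 3134 normalized counts in shBDH1 and 8505 and 8194 in shcontrol. SLC7A5 supplied 74.8% and 72.4% of that sum in shBDH1 and 88.9% and 88.0% in shcontrol. The light chains stood to SLC3A2 as 1.56 and 1.52 in shBDH1 and as 1.67 and 1.62 in shcontrol. With the exons of all GENCODE 29 transcripts these ratios were 2.84 and 2.76 in shBDH1 and 3.11 and 3.01 in shcontrol. The absolute ratio thus depends on the gene model. Its order between groups stayed the same, but had little room to change, since each exon length is the same in every library.

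**Figure D3:**
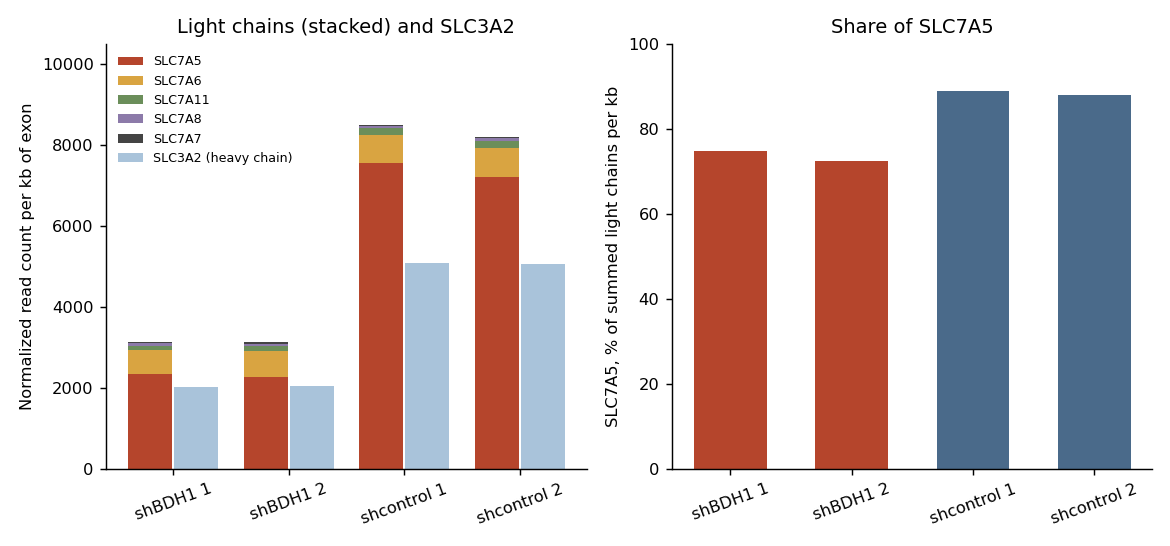
Left, normalized read count per kilobase of exon of the 5 light chains (stacked) and of SLC3A2 (light blue) in each library; right, SLC7A5 as a percent of the summed light chains (red, shBDH1; blue, shcontrol). Both bars shrink in the 2 shBDH1 libraries, and the SLC7A5 share is 74.8% and 72.4% there against 88.9% and 88.0% in shcontrol.

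Ratios of partner and sister genes within a library do not depend on the scaling of libraries. The log2 ratio of SLC7A5 to SLC3A2 was 1.01 and 0.93 in shBDH1 and 1.36 and 1.30 in shcontrol, a difference of -0.36. That of SLC7A11 to SLC3A2 was -2.596 and -2.418 in shBDH1 and -3.067 and -2.999 in shcontrol, a difference of 0.53. For SLC1A5 to SLC1A4 it was 1.94 and 1.99 in shBDH1 and 2.26 and 2.30 in shcontrol, a difference of -0.32. For SLC38A2 to SLC38A1 it was -0.60 and -0.48 in shBDH1 and -0.69 and -0.64 in shcontrol, a difference of 0.13, which was 0.07 without shBDH1 replicate 2. The groups did not overlap for any of these 4 ratios, but 2 libraries against 2 cannot give a two-sided exact permutation p below 0.333, and each ratio had p = 0.333.

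The gene named by the hairpin and the known regulators were read in the same fit. BDH1 had 1221 and 1412 normalized counts in shBDH1 and 1725 and 1911 in shcontrol (log2 fold change -0.47, SE 0.078, limma adjusted p = 1.5e-05). SLC7A5, SLC3A2, SLC43A1, SLC7A11, SLC7A1 and SLC1A5 all had larger point estimates of fall than this. MYC had 7453 and 7368 in shBDH1 and 14683 and 14804 in shcontrol (-0.99, SE 0.038, limma adjusted p = 2.7e-18), a fall that SLC7A5 and SLC3A2 exceeded. ATF4 had 12717 and 12969 in shBDH1 and 16111 and 15135 in shcontrol (-0.28, SE 0.037, limma adjusted p = 3.7e-07), about the size of the fall of SLC38A2. Whether either factor sets the transporter levels was not tested.

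**Figure D4:**
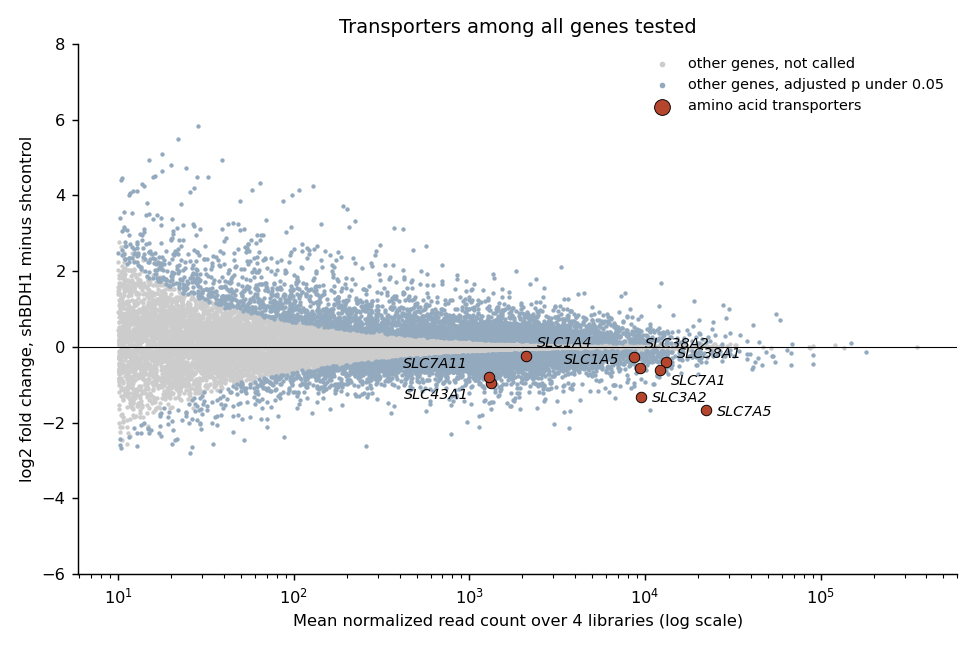
Log2 fold change of shBDH1 minus shcontrol (y axis) against the mean normalized read count over the 4 libraries (x axis, log scale) for the 19301 genes tested; red points are the 9 transporters, blue-grey points other genes with adjusted p under 0.05 and light grey points genes not called. All 9 lie below 0, and SLC7A5 at -1.68 sits at the lower edge among highly expressed genes.

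RefSeq promoters, 250 bases before to 50 after a start, were at hand for 8 of the 10 genes, with 15 starts in all. The genes without one are among SLC7A3, SLC7A11 and SLC38A2, so the lack of a match for these is not a result. The shares over all genes take in every gene with such a promoter, expressed or not. The E-box CACGTG, which reads the same on both strands, occurred at a start of SLC7A5, SLC43A1 and SLC1A5, which makes 3 of 8 genes, against 8.77% of 27305 genes, and 3 of 15 promoters, against 7.26% of 35116. TGATGNAA, the core of the composite site that ATF4 and C/EBP proteins bind, was sought on both strands and occurred for SLC3A2, SLC7A1, SLC38A1, SLC1A4 and SLC1A5. That is 5 of 8 genes, against 4.46% of all genes, and 5 of 15 promoters, against 3.62% of all promoters. TGACNNNGC, the core of the antioxidant response element, occurred for SLC7A5, SLC3A2, SLC7A1 and SLC1A5, 4 of 8 genes, against 16.1% of all genes, and 4 of 15 promoters, against 13.3% of all promoters. A gene with several starts has more chances to hold a match, and which start Jurkat cells use cannot be read from counts per gene.

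The matches to the E-box and to the ATF4 core in the falling transporters are shown in windows of 30 bases, read 5′ to 3′ on the strand of the gene, with the matched letters in capitals (RefSeq, GRCh38.p14). The E-boxes of SLC43A1 (chr11:57515797-57515826, minus strand) and SLC1A5 (chr19:46787326-46787355, minus strand) begin 112 and 50 bases before a start.
SLC43A1: cagcgggcgagtCACGTGcgcgtgaaactc
SLC1A5: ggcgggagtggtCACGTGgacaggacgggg
The ATF4 cores lie at SLC7A1 (chr13:29595663-29595692, minus strand), SLC38A1 (chr12:46266502-46266531, minus strand), SLC1A5 (chr19:46784893-46784922, minus strand), SLC1A4 (chr2:64989381-64989410, plus strand) and SLC3A2 (chr11:62881719-62881748, plus strand); those of SLC1A4 and SLC3A2 match on the opposite strand.
SLC7A1: gggcgcactgcTGATGAAAcctggcgccgg
SLC38A1: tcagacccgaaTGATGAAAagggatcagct
SLC1A5: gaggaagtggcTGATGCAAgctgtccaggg
SLC1A4: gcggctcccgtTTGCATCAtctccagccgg
SLC3A2: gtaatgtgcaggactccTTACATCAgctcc
SLC1A5 had both kinds of match, at different starts, while SLC7A5 and SLC43A1 had the E-box alone of these 2. These are matches of letters and no measure of binding.

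Other amino acid transporters went both ways, as did genes as a whole. Of 42 listed, 27 were in the table and 22 were tested. Of these 22, 8 fell, 4 rose and 10 did not pass the test, with a median log2 fold change of 0.03. Among all 19301 genes tested, 20.8% were called lower and 20.3% higher. SLC6A9, or GLYT1, which imports glycine, had 372 and 275 normalized counts in shBDH1 and 819 and 904 in shcontrol (log2 fold change -1.43, limma adjusted p = 3.2e-10). SLC38A5, a further glutamine carrier of the SLC38 family, had 1249 and 1151 in shBDH1 and 1719 and 1701 in shcontrol (-0.51, limma adjusted p = 1.8e-06). The 4 that rose were SLC1A7, SLC6A20, SLC7A8 and SLC1A1. SLC1A7, a glutamate transporter best known from the retina, had 51 and 59 reads in shBDH1 and 2 and 1 in shcontrol, a ratio of 35.6 (95% exact counting interval 11.9 to 175). SLC6A20, a carrier of proline, had 38 and 26 reads in shBDH1 and 0 and 1 in shcontrol, a ratio of 62.1 (95% exact counting interval 10.8 to 2491). Both passed the test (limma adjusted p = 2.5e-05 for SLC1A7 and 7.4e-04 for SLC6A20), and the intervals cover counting error only. They reached the minimum mean of 10 only through shBDH1, with means of 54.7 and 31.7 there against 1.54 and 0.511 in shcontrol. Their entry into the test, and into the count of 4 that rose, thus hung on the rise itself. Their p-values are no separate support for it. SLC7A8, the light chain given above, had 369.6 and 301 normalized counts in shBDH1 and 229 and 251 in shcontrol. SLC1A1, a glutamate transporter named after its values were seen, had 167 and 191 in shBDH1 and 113 and 73.6 in shcontrol (0.96, limma adjusted p = 0.0020).

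Enzymes that use the transported amino acids were mostly lower. Of 28 listed, 24 were in the table and 23 tested, of which 14 fell, 1 rose and 8 did not pass, with a median log2 fold change of -0.32. Of all genes tested, 20.8% were called lower and 20.3% higher. Among genes with a mean of 1000 or more, as most of these enzymes have, 34.7% were called lower. GPT2, the mitochondrial alanine transaminase, had 1897 and 1692 normalized counts in shBDH1 and 3997 and 3796 in shcontrol (-1.12, limma adjusted p = 1.1e-14). The aminotransferases of branched-chain amino acids, which are cargo of SLC7A5 and SLC43A1, fell too, BCAT1 by 0.74 and BCAT2 by 0.84 on the log2 scale (limma adjusted p = 1.0e-12 for BCAT1 and 3.7e-11 for BCAT2). ASS1, which starts arginine synthesis from citrulline, fell by 0.77 (limma adjusted p = 3.1e-11). GCLC, the catalytic subunit that starts glutathione synthesis, was the 1 that rose, by 0.16 (limma adjusted p = 0.025; named after its values were seen).

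Regulators of amino acid supply went both ways. Of 19 genes of the amino acid stress and MYC list, 9 fell, 4 rose and 6 did not pass, with a median of 0.03. The shares over all genes tested were 20.8% lower and 20.3% higher. Besides MYC, TRIB3, a pseudokinase induced by ATF4, had 1486 and 1650 normalized counts in shBDH1 and 2840 and 3210 in shcontrol (-0.95, limma adjusted p = 4.1e-12). ATF5, a relative of ATF4, fell by 0.62 (limma adjusted p = 9.6e-10), and HIF1A, the oxygen-regulated factor, rose by 0.79 (limma adjusted p = 3.2e-09).

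Genes by which mTORC1 senses amino acids numbered 22, of which 20 were in the table and 19 were tested. Of these 19, 5 fell, 5 rose and 9 did not pass, with a median of 0.00. These counts lay near the shares of all genes tested, 20.8% lower and 20.3% higher. SESN2, a leucine sensor, had 933 and 1022 normalized counts in shBDH1 and 2602 and 2629 in shcontrol (-1.42, limma adjusted p = 1.3e-15). Its relative SESN3 had 2318 and 2062 in shBDH1 and 900 and 849 in shcontrol (1.32, limma adjusted p = 3.6e-14). The Rag GTPase gene RRAGD rose by 0.83 (limma adjusted p = 4.1e-11), and BMT2, the S-adenosylmethionine sensor also called SAMTOR, rose by 0.71 (limma adjusted p = 2.4e-05).

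Of 9 partners and turnover factors of transporters, 8 were tested, of which 1 fell, 2 rose and 5 did not pass, with a median of 0.04. Over all genes tested, 20.8% were called lower and 20.3% higher. ARRDC3, an arrestin-like adaptor, had 1094 and 1106 normalized counts in shBDH1 and 525 and 585 in shcontrol (0.99, limma adjusted p = 1.5e-09). NEDD4L, a ubiquitin ligase that acts on membrane proteins, rose by 0.38 (limma adjusted p = 0.0013). OTUB1, a deubiquitinase known to stabilise SLC7A11 protein, fell by 0.22 (limma adjusted p = 0.0043). BSG, the basigin chaperone of monocarboxylate carriers, did not pass (-0.10, limma adjusted p = 0.065).

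**Figure D5:**
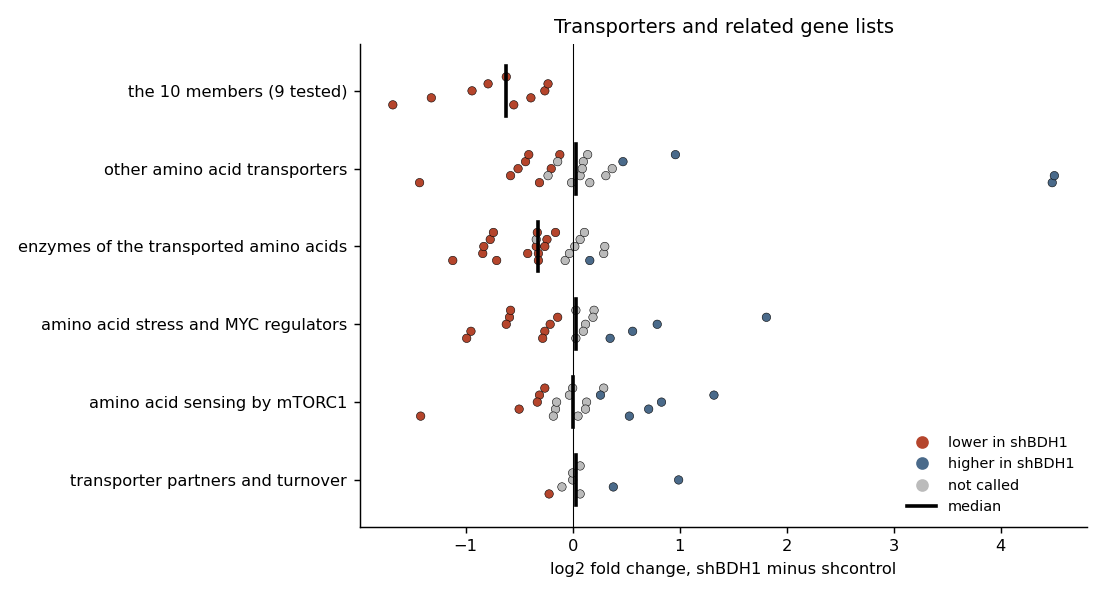
Log2 fold change of shBDH1 minus shcontrol (x axis) for each tested gene of the transporter set and of 5 related lists (rows); red points were called lower, blue higher and grey not called, and black bars are medians. The transporter set has its median at -0.62 and the enzymes theirs at -0.32, and the other 4 medians lie between 0.00 and 0.04.

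Several transporters share sequence with transcripts on the opposite strand, and the strand setting of the counting is not given in the sources used here, so such pairs may share reads. AC126696.2 overlaps exons of SLC7A5 by 271 bases and had 626 and 649 normalized counts in shBDH1 and 1961 and 2051 in shcontrol (log2 fold change -1.65, against -1.68 for SLC7A5). SLC7A11-AS1 overlaps SLC7A11 by 865 bases and had 645 and 582 in shBDH1 and 1044 and 1116 in shcontrol (-0.82, against -0.79). AC008622.2 overlaps SLC1A5 by 780 bases and had 2066 and 1927 in shBDH1 and 3045 and 2613 in shcontrol (-0.50, against -0.55). The levels of SLC7A11 and SLC1A5, and the place of SLC1A5 per kilobase, are therefore uncertain. The pseudogene SLC7A5P1, a near copy of SLC7A5 elsewhere, had 107 and 93.5 normalized counts in shBDH1 and 73.9 and 119 in shcontrol, without a call (0.10, limma adjusted p = 0.82).

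The libraries held 29453383 and 28777374 reads in genes in shBDH1 and 28681511 and 28797402 in shcontrol. T cell markers were present, 9 of 10 listed being in the table, with CD3E at 14202 and 14065 normalized counts in shBDH1 and 12444 and 12422 in shcontrol. Of these 9, 6 rose, 1 fell and 2 did not pass, against 20.3% higher and 20.8% lower among all genes tested. CD7 (1.27), LCK (0.33), CD3D (0.41) and CD28 (1.61) had the smallest p. Of the B cell markers, CD79A had 599.6 and 601.4 normalized counts in shBDH1 and 125 and 144 in shcontrol and rose (2.15), while PAX5 had 11.8 and 8.05 in shBDH1 and 6.16 and 7.15 in shcontrol and was below the level tested. Myeloid markers, 5 of 5 in the table, summed to 84.5 to 85.5 in shBDH1 and 61.6 to 67.5 in shcontrol with no call among the 2 tested, CSF1R (0.13) and CD68 (0.91), and LYZ was at 0 in 3 libraries. Of erythroid markers only ALAS2 was in the table (16.7 to 71.4 in shBDH1, 32.9 to 35.8 in shcontrol; 0.02, not called). Fibroblast and epithelial markers, 3 of 5 in the table, summed to 922 to 1031 in shBDH1 and 718 to 732 in shcontrol, with KRT8 (1.19) and COL1A1 (0.44) higher and KRT18 not called (-0.38). The part of these markers in the transporter results was not tested.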

How the data were processed

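The deposited table gives 1 value per gene and library, which is a normalized signal: the authors had scaled gene read counts by a size factor for each library. The values show it, since 100.0% of each library's were whole multiples of 1 step within 0.01 reads. Per the submitters' processing notes, FastQC 0.11.9, HISAT2 2.2.1 and the build hg38 were used. The counter, annotation and strand setting were not given in the sources used here.

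Values were tested as log2(value + 1) with limma 3.58.1 (R 4.3.3), a variance prior that depends on intensity, and Benjamini-Hochberg adjustment over the 19301 genes with a mean of at least 10; the threshold was 0.05. The pseudocount understates changes of low genes. Residual degrees of freedom were 2 and prior ones 25.8. Alternatives were other pseudocounts, filters, priors and scalings, edgeR 4.0.16, DESeq2 1.42.0 and limma-voom on recovered reads, a replicate block, and leaving out each library in turn. Positions and exon lengths are from GENCODE 29, on the same assembly. Ratios used the exact permutation test of scipy 1.17.1.

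Members and gene lists were chosen with earlier results of these data known. All 10 members were named, with BDH1, MYC and ATF4, and of each list up to 4 genes with the smallest p; SLC7A6, SLC7A7, SLC7A8, SLC1A1, PAX5, overlapping genes, CD3E, LYZ and GCLC were added. Some results for overlapping and marker genes are not reported here. The libraries held 28681511 to 29453383 recovered reads.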

Additional observations from a re-analysis of the deposited data

How the results depend on the processing

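Over 16 alternative settings, the 9 transporters tested stayed lower in shBDH1 in all of 144 values, and 141 of these kept their side of the threshold. The exceptions were SLC1A4 (-0.23, adjusted p = 0.11) and SLC38A2 (-0.26, adjusted p = 0.080) with 1 variance prior for all genes, and SLC1A4 without shcontrol replicate 1 (-0.20, adjusted p = 0.061); the cause was not tested. With that single prior 7 of the 9 transporters were called, and over all genes 1246 were called lower and 1598 higher, against 4020 and 3910. The direction could not change in many of these settings. The groups of the 9 did not overlap, so another pseudocount or leaving out 1 library could not reverse it. Other filters, the single prior and the replicate block left the log2 fold changes as they were. SLC7A5 ranged from -1.71 to -1.63, SLC3A2 from -1.33 to -1.27 and SLC7A11 from -0.89 to -0.69. Leaving out a library gave 8 to 9 transporters called lower and 0 higher, with 3201 to 3504 genes called lower and 3011 to 3437 higher over all genes. There the lone library of a group is assumed to vary like the others. The 4 ratio differences kept their sign under other pseudocounts and without any 1 library. As the groups did not overlap for any of these ratios, leaving out a library could not have changed a sign. The difference for SLC38A2 to SLC38A1, 0.13, was 0.07 without shBDH1 replicate 2. Scalings moved the median of all genes by at most 0.045. With the replicate block 9 transporters were called lower, and 4217 genes lower and 4108 higher; same-numbered libraries share only a number (correlation of deviations 0.001), and the block changed no transporter's call. Upper-quartile factors gave 3331 lower and 4422 higher. On recovered reads, edgeR, DESeq2 and limma-voom each called 9 transporters lower. Precision for SLC7A3, with 5 reads in all, is limited by depth.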
